A study of Mus musculus with 4 samples.

Results

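The 9 genes described here encode granule proteins, alarmins and surface receptors of neutrophils, the short-lived granulocytes that patrol blood and inflamed tissue. All 9 are listed among the 19042 gene symbols that the lung singlet and lung multiplet tables share. They were chosen by name for their known roles, with their values in these same libraries already in view, so their levels are given as descriptions and no test was made of them. They fall into 5 genes of mature neutrophils (S100a8, S100a9, Retnlg, Csf3r and Mmp9) and 4 genes usually assigned to earlier granule-forming stages (Ltf, Camp, Ngp and Lcn2).

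The study profiled physically attached cells by droplet single-cell RNA sequencing of dissociated whole lung and small intestinal epithelium from mice of the inbred strain C57BL/6J, with no treatment named. From either tissue there was 1 singlet library, of single cells, and 1 multiplet library, of clusters of 2 or more cells, in which 1 barcode can hold RNA of several cells. The labels give no age, number of animals or way of separating singlets from multiplets. The lung singlet library had 6084 barcodes with a median of 7896 unique molecular identifiers (UMIs, counted RNA molecules), and the lung multiplet library had 4729 barcodes with a median of 11934 and none below 5006. With 1 library per group there was no spread between replicates, so intervals are exact, at 95%, and cover counting error only. Levels are CPM, UMIs scaled to a library or class total of 1e6, and a difference is called by size alone, at more than 1.5-fold.

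Neutrophils fill their granules in a fixed order while they mature in bone marrow. Azurophil granule genes such as Mpo and Elane are transcribed first, the specific granule genes Ltf (lactoferrin, which binds iron), Camp (the cathelicidin precursor) and Ngp (neutrophilic granule protein) next, and gelatinase genes such as Mmp9 later, under factors of the C/EBP family and PU.1. S100a8 and S100a9 encode the subunits of calprotectin, a calcium- and zinc-binding alarmin that makes up much of the neutrophil cytosol. Csf3r is the receptor for the growth factor G-CSF, Retnlg is a resistin-like secreted protein, and Lcn2 (lipocalin 2) captures bacterial siderophores. Secretory epithelium also makes lactoferrin and lipocalin 2.

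In the GENCODE M21 annotation of GRCm38 (mm10), S100a8 (chr3:90668978-90670035, plus strand) and S100a9 (chr3:90692632-90695721, minus strand) were neighbours on chromosome 3. Camp (chr9:109847379-109849617, minus strand), Ngp (chr9:110419747-110423012, plus strand) and Ltf (chr9:111019271-111042767, plus strand) all lay on chromosome 9, and Lcn2 (chr2:32384633-32388252, minus strand) and Mmp9 (chr2:164940780-164955850, plus strand) on chromosome 2. Retnlg (chr16:48872621-48874496, plus strand) and Csf3r (chr4:126024550-126044440, plus strand) had chromosomes to themselves. The 250 bases before the RefSeq start site (GRCm38.p6) are shown for the calprotectin pair, which moved together in the libraries, and for the chromosome 9 genes, of which Camp and Ngp moved together and Ltf did not. Capitals mark 2 motifs searched on both strands, TTGCNNAA (a C/EBP-type site) and GAGGAA (a PU.1-type core), whose matches did not overlap in these windows.
S100a8: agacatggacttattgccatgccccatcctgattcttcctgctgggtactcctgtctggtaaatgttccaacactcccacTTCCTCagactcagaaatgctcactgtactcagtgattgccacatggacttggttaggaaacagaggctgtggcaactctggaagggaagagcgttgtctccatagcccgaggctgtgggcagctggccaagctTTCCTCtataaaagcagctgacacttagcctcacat
S100a9: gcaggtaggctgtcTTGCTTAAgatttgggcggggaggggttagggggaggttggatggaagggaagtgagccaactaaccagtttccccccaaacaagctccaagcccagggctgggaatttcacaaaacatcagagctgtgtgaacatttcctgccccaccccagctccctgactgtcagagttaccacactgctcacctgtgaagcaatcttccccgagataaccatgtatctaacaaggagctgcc
Camp: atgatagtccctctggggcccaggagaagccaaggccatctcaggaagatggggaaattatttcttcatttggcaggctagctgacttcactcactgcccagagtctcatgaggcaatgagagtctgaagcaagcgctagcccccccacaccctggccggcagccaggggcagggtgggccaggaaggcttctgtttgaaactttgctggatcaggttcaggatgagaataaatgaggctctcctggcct
Ngp: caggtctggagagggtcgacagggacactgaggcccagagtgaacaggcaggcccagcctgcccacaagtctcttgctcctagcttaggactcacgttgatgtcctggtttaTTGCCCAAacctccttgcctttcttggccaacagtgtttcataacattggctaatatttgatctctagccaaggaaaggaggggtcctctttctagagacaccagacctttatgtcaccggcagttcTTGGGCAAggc
Ltf: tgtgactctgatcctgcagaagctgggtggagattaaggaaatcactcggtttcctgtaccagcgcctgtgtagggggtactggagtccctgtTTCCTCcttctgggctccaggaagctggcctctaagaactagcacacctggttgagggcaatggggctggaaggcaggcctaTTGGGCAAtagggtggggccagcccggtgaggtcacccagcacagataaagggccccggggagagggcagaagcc

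These windows were chr3:90668821-90669070 (S100a8, plus strand), chr3:90695722-90695971 (S100a9, minus strand), chr9:109849457-109849706 (Camp, minus strand), chr9:110419558-110419807 (Ngp, plus strand) and chr9:111019042-111019291 (Ltf, plus strand). The S100a8 window held 2 matches to GAGGAA and none to TTGCNNAA, and the S100a9 window held 1 match to TTGCNNAA and none to GAGGAA. Ngp had 2 matches to TTGCNNAA, Ltf had 1 match to each motif, and Camp had none. Of the 8 members with an entry, 5 held TTGCNNAA and 4 held GAGGAA, while 9.55% and 23.1% of 27025 promoter windows of the same length did. The RefSeq and GENCODE starts differ. By the GENCODE spans, the S100a8, Csf3r, Ltf, Camp and Ngp windows reach into the gene, and the Lcn2 window lies wholly within it. A match is a run of letters and was not tested as a binding site.

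Mature neutrophil RNA among lung singlets sat in a class the authors named Macrophage. The authors' annotation has 13 lung classes and none is called neutrophil. S100a8 had 4061 UMIs in the singlets, of which 3626 (89.3%) were in the 283 Macrophage barcodes, at 1382 CPM (1337 to 1428). S100a9 had 4348 UMIs, with 3919 (90.1%) in the same class, at 1494 CPM (1447 to 1541). Retnlg (691 of 745 UMIs, 263 CPM), Csf3r (238 of 288, 90.7 CPM) and Mmp9 (130 of 139, 49.5 CPM) followed the same pattern. For all 5 genes, the interval of the Macrophage class lay above that of the next class. With each barcode weighted equally, S100a8 in the Macrophage class came to 2215 CPM and Mmp9 to 83.4 CPM, and Retnlg to 423 CPM.

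**Figure D1:**
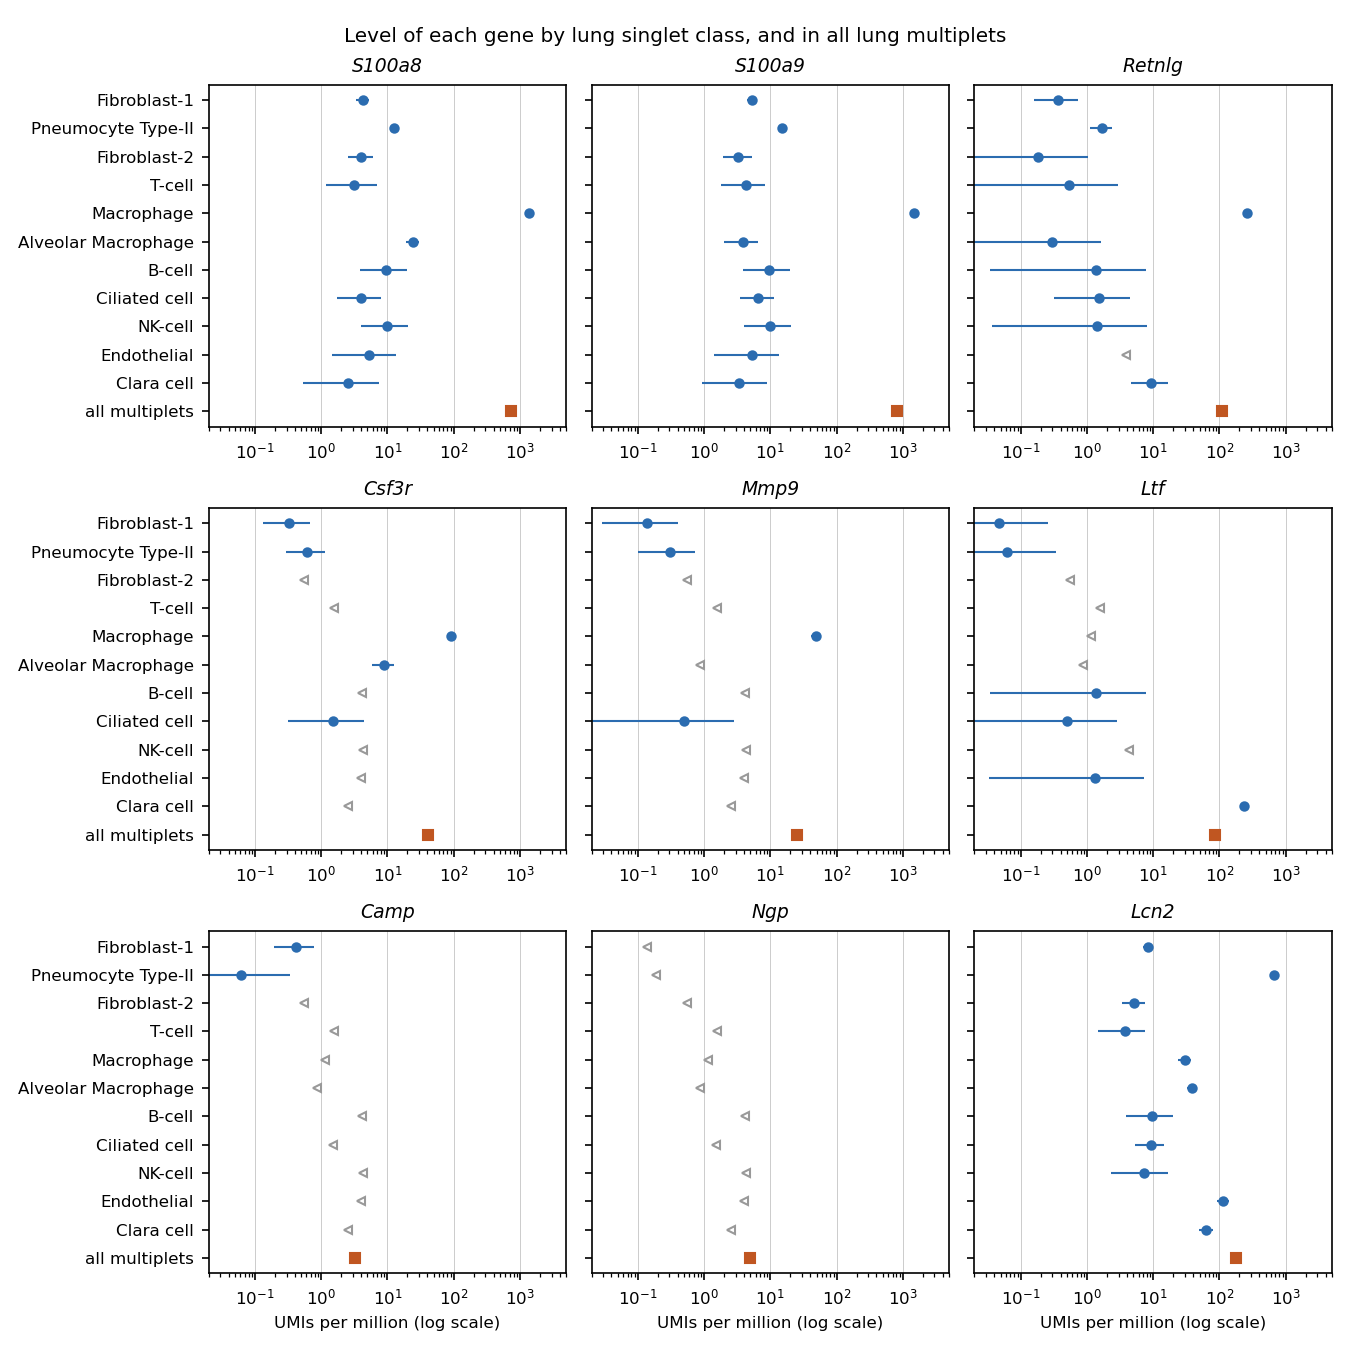
CPM (log scale) of each of the 9 genes in the 11 lung singlet classes with at least 50 barcodes (blue, with exact Poisson intervals) and in all lung multiplets (orange squares, no interval drawn). Grey open triangles stand at the level that 3 UMIs would give in a class where none was counted, and the 5 mature genes peak in the Macrophage class, Ltf in Clara cells and Lcn2 in type II pneumocytes.

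Within the Macrophage class the signal came from a small set of barcodes. S100a8 and S100a9 together made up at least 1% of all UMIs in 32 singlets (0.526% of 6084, 0.36% to 0.742%), here called mature-rich, of which 31 carried the Macrophage label and 1 the type II pneumocyte label. The barcodes on either side of this limit were at 1.05% and 0.84%, and the highest was at 13.3%. The 31 barcodes were 10.95% of the Macrophage class (7.57% to 15.2%). The 32 mature-rich singlets held 83.7% of the library's S100a8 UMIs, 87.4% of S100a9, 87.8% of Retnlg and 82% of Mmp9, but 48.3% of Csf3r. Outside them S100a8 was at 11.7 CPM. Scrublet, a doublet caller, marked none of the 32. Their median depth was 6242 UMIs, and 8 of them were shallower than any lung multiplet.

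At equal depth the same class led. When every barcode was thinned to 2000 UMIs, S100a8 was seen in 14.5% of Macrophage barcodes (10.6% to 19.1%), against 0.844% (0.547% to 1.24%) of Fibroblast-1 barcodes. Fibroblast-1, the largest class, served as the reference, and the source of its S100a8 UMIs was not tested. Csf3r was seen in 13.8% of Macrophage barcodes and Mmp9 in 7.07%, against 0.0337% of Fibroblast-1 barcodes for each. Median depths were 8574 UMIs in the Macrophage class and 6562 in Fibroblast-1. Without thinning, the shares for S100a8 were 18.4% and 2.94%. Alveolar macrophages, with a median of 14028 UMIs, led for S100a8 when barcodes were not thinned, at 23.3%, but at 2000 UMIs their share was 2.64% (0.976% to 5.66%), which overlapped that of Fibroblast-1.

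Alveolar macrophages, the resident phagocytes of the air spaces, carried S100a8 without a matching amount of S100a9. The 227 barcodes of that class held 83 S100a8 UMIs (24.3 CPM, 19.4 to 30.2) and 13 S100a9 UMIs (3.81 CPM, 2.03 to 6.52), with at most 9 S100a8 UMIs in a barcode. S100a8 made up 86.5% of the UMIs of the pair (78.0% to 92.6%) there, against 48.1% (46.9% to 49.2%) in the Macrophage class, 46.0% (41.2% to 50.7%) in type II pneumocytes and 44.2% (37.3% to 51.2%) in Fibroblast-1. Macrophage barcodes that were not mature-rich lay between, at 59.2% (55.0% to 63.4%, 321 and 221 UMIs), and the 244 of them with the pair under 0.1% of UMIs had 13 UMIs of each gene. In alveolar macrophages the share was 87.8% without Scrublet doublets and 85.1% without the top barcode. Neither gene's level sets a ratio of molecules, since each is counted by its own 3′ tags, but the same pair was counted in every class. Csf3r also had a level in alveolar macrophages above that of Fibroblast-1, at 8.79 CPM (5.93 to 12.6) in 26 of 227 barcodes, against 0.325 CPM in Fibroblast-1. Mmp9 had no UMI in this class, where 3 UMIs would be 0.879 CPM, and Retnlg had 1.

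The same departure was seen in multiplets that held alveolar macrophage markers. Among multiplets with S100a8 and S100a9 under 0.1% of UMIs, the 768 with alveolar macrophage markers at 0.5% or more had 488 S100a8 and 327 S100a9 UMIs, a share of 59.9% (56.4% to 63.3%). The 3596 others had 907 and 1093, a share of 45.4% (43.2% to 47.6%). The marker limit was chosen after the singlet values were seen; 94.3% of Alveolar Macrophage singlets and 0.0171% of other singlets passed it. When S100a8 and S100a9 were allowed up to 1% of UMIs, the shares drew together, at 50.9% and 47.5%.

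**Figure D2:**
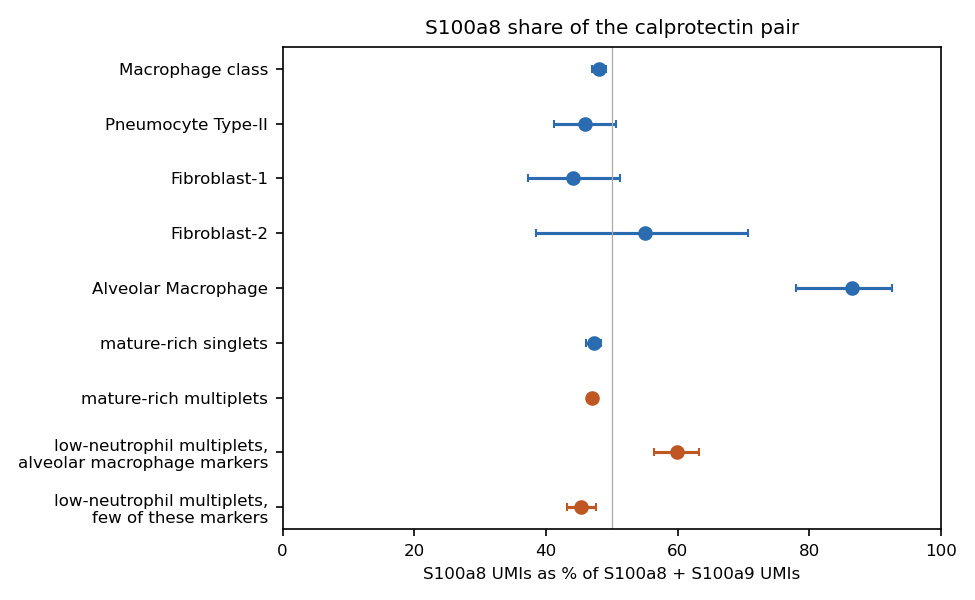
S100a8 UMIs as a percentage of S100a8 plus S100a9 UMIs in singlet classes (blue) and in sets of multiplets (orange), with exact Clopper-Pearson intervals; low-neutrophil multiplets had both genes under 0.1% of UMIs. The Alveolar Macrophage class sits at 86.5% and the low-neutrophil multiplets with its markers at 59.9%, while the mature-rich sets sit at 47.2% and 47%.

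Ltf, although a specific granule gene, followed club cells, the secretory cells of the airway that the authors label Clara cell. Of 277 Ltf UMIs in singlets, 272 (98.2%) were in the 61 Clara barcodes, at 233 CPM (206 to 262), and none was in the Macrophage class, where 3 UMIs would be 1.14 CPM. Ltf was found in 11 of the 61 Clara barcodes, and 1 of these held 201 UMIs, followed by 33, 13 and 8. Without the top barcode the class level was 61.2 CPM, still the highest of the classes. Retnlg also had its next highest level in Clara cells, with 11 UMIs in 8 barcodes (9.41 CPM, 4.7 to 16.8). This interval lay above that of the class next in order, type II pneumocytes (1.67 CPM, 1.1 to 2.42). It overlapped those of NK, B and endothelial barcodes, whose upper ends were 7.97, 7.66 and 4.85 CPM. The levels of the remaining classes could not be ordered beyond counting error. After thinning to 2000 UMIs, 0 of the 61 Clara barcodes, with a median depth of 16654 UMIs, held a Retnlg UMI.

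Lcn2 followed type II pneumocytes, the surfactant-secreting cells of the alveolus. Of 11409 Lcn2 UMIs in singlets, 10794 (94.6%) were in the 1009 type II barcodes, at 666 CPM (654 to 679). It was detected in 939 of these barcodes, with a median of 7 UMIs and a highest value of 131. Endothelial barcodes came next at 113 CPM (90.5 to 140), Clara cells at 63.3 CPM (49.7 to 79.5) and alveolar macrophages at 39 CPM (32.6 to 46.2), the last at 16.0 CPM without 1 barcode that held 79 UMIs. With each barcode weighted equally the endothelial level was 56.8 CPM and the alveolar macrophage level 23.4 CPM. Type II markers summed to 13176 CPM in the endothelial class, more than in any class other than type II, and their part in its Lcn2 level was not tested. In the Macrophage class Lcn2 was at 29.7 CPM, and 64 of its 78 UMIs were in the 31 mature-rich barcodes, at 291 CPM against 5.82 CPM in the other 252.

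Camp and Ngp had no class among singlets. Ngp had no UMI in any of the 6084 singlets. Camp had 10 UMIs in 10 barcodes, 9 in Fibroblast-1 (0.417 CPM, 0.191 to 0.792) and 1 in a type II barcode. No Camp UMI was in the Macrophage class, where 3 UMIs would be 1.14 CPM. None of the 32 mature-rich singlets held a UMI of Ltf, Camp or Ngp. The neutrophil name of the group therefore described the 5 mature genes in these singlets, but not Ltf and Lcn2, whose RNA lay almost wholly in epithelial classes.

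In the lung multiplets all 5 mature genes were higher than in the singlets. S100a8 had 4061 UMIs in singlets (71.7 CPM) and 48170 in multiplets (727 CPM), a ratio of 10.1 (9.82 to 10.5). S100a9 went from 4348 UMIs (76.8 CPM) to 53893 (813 CPM), a ratio of 10.6 (10.3 to 10.9). The receptor gene Csf3r went from 288 UMIs (5.09 CPM) to 2739 (41.3 CPM), a ratio of 8.13 (7.2 to 9.21). Retnlg (745 to 7315 UMIs) had a ratio of 8.39 and Mmp9 (139 to 1668 UMIs) one of 10.3, so the 5 ratios lay within a narrow range. Summed, the mature genes were 10.2-fold higher (9.94 to 10.4). The ratio was 16.1 without the 10 barcodes richest in these genes in each library and 7.73 after thinning to 2000 UMIs. Fewer neutrophils and less RNA per neutrophil cannot be told apart in a summed library.

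The early genes did not share a pattern. Ltf had 277 UMIs in singlets (4.89 CPM) and 5753 in multiplets (86.8 CPM), a ratio of 17.8 (15.7 to 20.1). Its ratio was 5.9 with each barcode weighted equally, 5.71 after thinning and 131 without the 10 barcodes with most Ltf in each library. The last value rests on few singlet UMIs, because the top 10 singlets held 97.8% of the 277. Camp went from 10 to 214 UMIs, a ratio of 18.3 (9.75 to 38.7). Ngp went from 0 to 332 UMIs, at least 94.6-fold higher when 3 UMIs over the whole singlet library are taken as the floor. In multiplets 2 barcodes held 204 of the Camp UMIs and 323 of the Ngp UMIs. Outside barcodes with S100a8 and S100a9 at 1% or more of UMIs, Camp was at 0.158 CPM in multiplets and 0.177 CPM in singlets. Ngp was at 0.0632 CPM in those multiplets and had no UMI in singlets. Lcn2 had 11409 and 11663 UMIs (201 and 176 CPM), a ratio of 0.874 (0.851 to 0.897), which was 1.42 with each barcode weighted equally and 1.39 after thinning, so its direction turned with the weighting. Summed, the early genes had a ratio of 1.31 (1.28 to 1.34) with Lcn2, which passed 1.5-fold with barcodes weighted equally (1.72) and after thinning (1.69). Without Lcn2 the ratio was 18.8 (16.7 to 21.2), which was 7.44 with barcodes weighted equally, 7.19 after thinning and 65.2 without the top 10 barcodes. The 65.2 again rests on few singlet UMIs.

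In all, 8 of the 9 members were more than 1.5-fold higher in multiplets, as were 15.9% of the 15098 genes that had 50 or more UMIs in the singlets or the multiplets, and none was lower by that much, as 13.8% of genes were. The median ratio over all of these genes was 0.963. Against the 4770 singlets at least as deep as the shallowest multiplet, 8 members again passed, with 17.1% of genes. Nothing is read from these counts, because the members were selected on values from the same libraries. The submitters' tables hold 2 barcode sequences that occur in both lung libraries.

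How the UMIs were spread over barcodes also differed between the genes. In multiplets the top 10 barcodes held 13.2% of S100a8 UMIs, 13.4% of S100a9, 17.3% of Retnlg, 8.69% of Csf3r and 10.3% of Mmp9. Lcn2 was spread more widely still, with 7.05% in its top 10. For Ltf the top 10 held 84.1%, for Camp 99.1% and for Ngp 99.7%. Camp had UMIs in only 12 multiplets and Ngp in 11, so their shares in the top 10 were close to fixed by detection. Ltf was found in 121 multiplets, and Lcn2 and each mature gene in 417 or more. A single barcode held 91.6% of all Camp UMIs and 78% of all Ngp UMIs, and the top Ltf barcode held 20.2%. The number of barcodes needed to reach 50% of the UMIs was 73 for S100a8, 121 for Csf3r, 198 for Lcn2, 5 for Ltf and 1 for Camp and for Ngp.

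In singlets the top 10 barcodes held larger shares of the mature genes, which were found in fewer barcodes. These shares were 46% of S100a8, 46.9% of S100a9, 62% of Retnlg, 52.5% of Mmp9 and 26.4% of Csf3r UMIs. S100a8 was found in 288 singlets and 1272 multiplets. Barcodes with S100a8 and S100a9 at 1% or more of UMIs held 83.7% of S100a8 UMIs in singlets and 81.2% in multiplets. For Lcn2 the share was 7.03%, close to that in multiplets. Of the 10 multiplets with most S100a8, 7 were also among the 10 with most S100a9, and none was among the 10 with most Ltf.

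**Figure D3:**
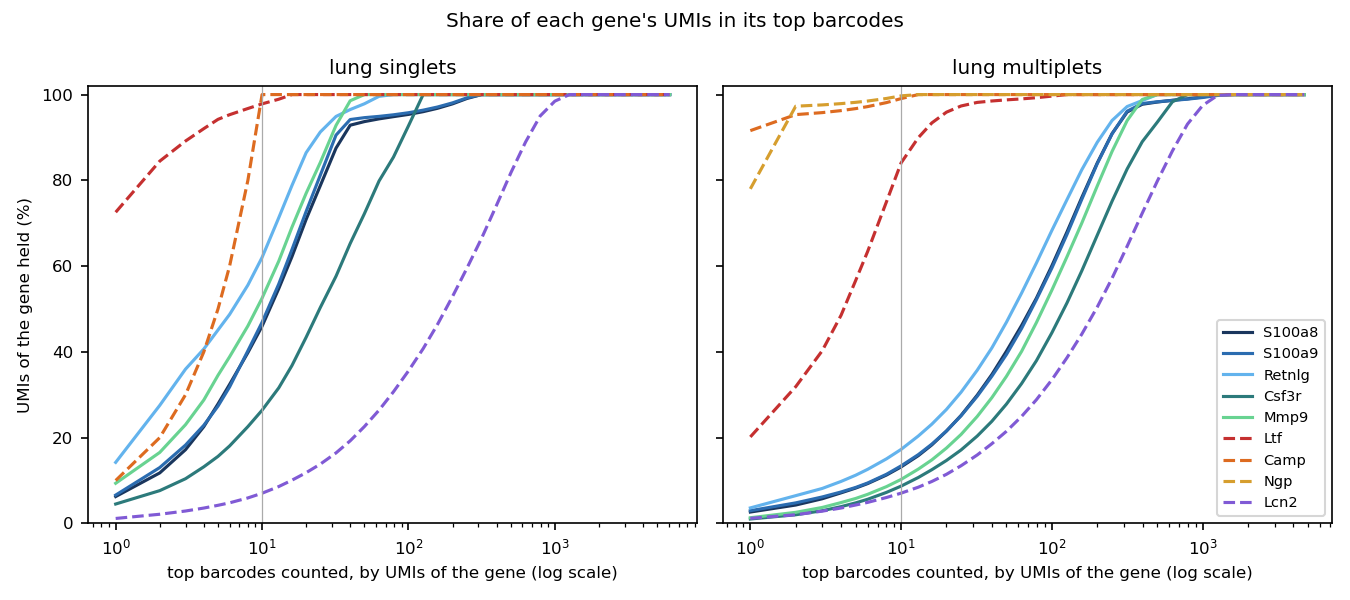
Cumulative percentage of each gene's UMIs (vertical axis) held by its top barcodes (horizontal axis, log scale), in lung singlets and lung multiplets; solid lines are mature genes, dashed lines early genes and the grey line marks 10 barcodes. In multiplets Ltf, Camp and Ngp reach 84.1%, 99.1% and 99.7% at 10 barcodes, while Lcn2 and the mature genes lie at 17.3% or less. Camp and Ngp have UMIs in only 12 and 11 multiplets.

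Mature-rich multiplets numbered 214 (4.53% of 4729, 3.95% to 5.16%), with S100a8 and S100a9 between 1.01% and 28.5% of UMIs and a median of 2.33%. The barcode just below the limit was at 0.998%. They held 81.2% of the library's S100a8 UMIs, 81.9% of S100a9, 80.3% of Retnlg, 62.8% of Mmp9, 55.5% of Csf3r and 7.12% of Lcn2. A mature-rich multiplet held a median of 143 S100a8 UMIs (23 to 1275), 161.5 S100a9 UMIs (28 to 1598), 18 Retnlg UMIs, 6 Csf3r UMIs and 4 Mmp9 UMIs. Retnlg was found in 209 of the 214, Csf3r in 210 and Mmp9 in 207. Their median depth was 11106.5 UMIs, close to the 11955 of the other 4515 multiplets, but the 13 with S100a8 and S100a9 at 8% or more had a median of 5480, near the lower end of the library.

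Most multiplets had little or no calprotectin RNA, and the remainder still differed from singlets. No S100a8 or S100a9 UMI was found in 2730 multiplets (57.7%) and in 5568 singlets (91.5%). A further 739 multiplets (15.6%) and 263 singlets (4.32%) had 0.01% to 0.1% of UMIs from the pair, and 151 and 9 had 0.1% to 1%. Outside the mature-rich barcodes of each library S100a8 was at 11.7 CPM in singlets and 143 CPM in multiplets, a ratio of 12.2 (11.3 to 13.2), and Mmp9 at 0.443 and 9.8 CPM. Most of this came from the barcodes just below the limit: the 151 multiplets at 0.1% to 1% held 7651 of the 9046 S100a8 UMIs (84.6%), and the 9 such singlets 373 of 661 (56.4%). Under 0.1%, S100a8 was at 5.12 CPM (4.54 to 5.74) in 6043 singlets and 23.3 CPM (22.1 to 24.5) in 4364 multiplets.

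Early and mature RNA met in few multiplets. Ltf, Camp and Ngp together made up at least 0.1% of UMIs in 19 multiplets, here called early-rich (0.402%, 0.242% to 0.627%). The nearest barcodes inside and outside this limit were at 0.128% and 0.0829%. Of the 19, 2 were also mature-rich (10.5%, 1.3% to 33.1%), an interval that includes the 4.53% of all multiplets that were. These 2 were 0.935% of the 214 mature-rich multiplets. The other 17 were early-rich through Ltf alone. Of the singlets 2 passed the same limit, at 0.775% and 2.46%.

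**Figure D4:**
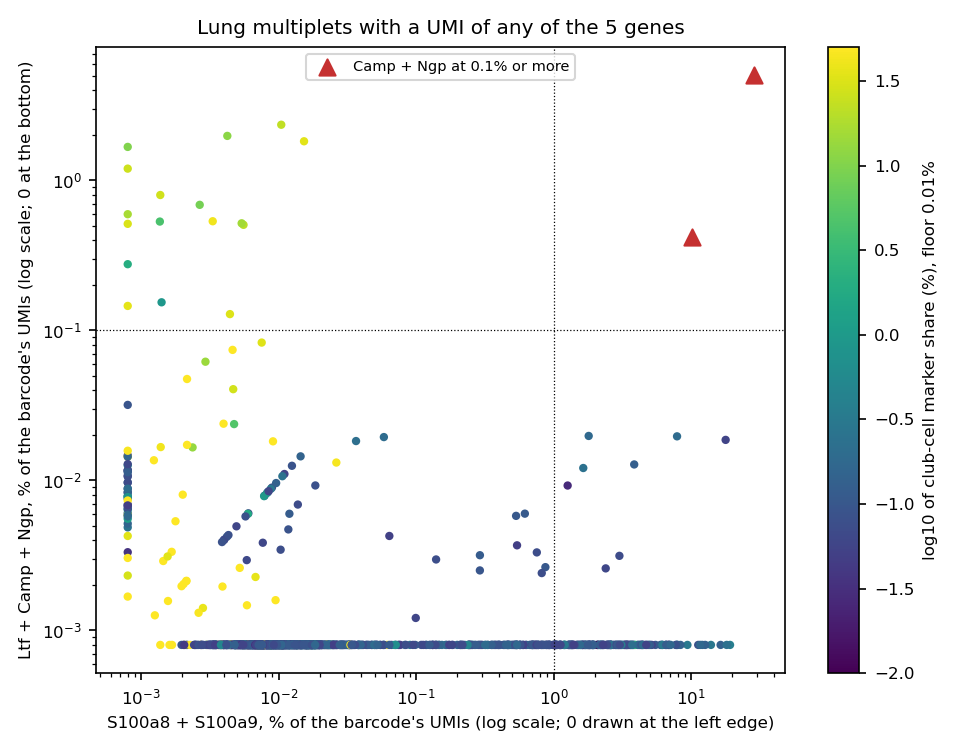
Each point is a lung multiplet with a UMI of any of the 5 genes, placed by S100a8 plus S100a9 (horizontal) and Ltf plus Camp plus Ngp (vertical) as a percentage of its UMIs, on log scales with 0 drawn near the edge, and coloured by its share of club-cell marker UMIs. The 2 red triangles, with Camp plus Ngp at 0.1% or more, are the only points beyond both dotted limits (1% and 0.1%), and the 17 others above 0.1% have at most 0.0153% from S100a8 and S100a9.

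The first of the 2 multiplets with both kinds of RNA had 10089 UMIs, of which 1275 were S100a8, 1598 S100a9, 209 Retnlg, 259 Ngp, 196 Camp, 138 Lcn2, 50 Ltf and 22 Mmp9. The second had 17522 UMIs, with 786 S100a8, 979 S100a9, 264 Retnlg, 64 Ngp, 47 Lcn2, 13 Mmp9, 8 Camp and 2 Ltf. Against the other 212 mature-rich multiplets, 4 mature genes were higher, Retnlg by 9.49-fold, S100a9 by 6.72-fold, S100a8 by 6.03-fold and Mmp9 by 3.74-fold. Csf3r, with 4 and 3 UMIs, was at 0.501-fold (0.201 to 1.04), an interval that includes parity. Together they held 204 of 214 Camp UMIs and 323 of 332 Ngp UMIs in the library, and the first had the highest S100a8 count of any multiplet. Camp plus Ngp reached 0.1% of UMIs in no singlet and in no other multiplet, and any UMI of either gene was found in 21 multiplets and 10 singlets.

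The stage genes around Camp and Ngp were uneven in these 2 barcodes. Among the other specific granule genes listed, 14 could be compared with the remaining 212 mature-rich multiplets, and 11 were more than 1.5-fold higher, as were 17.1% of 10623 genes. Cd177, a neutrophil surface protein, was 25.4-fold higher (11.9 to 49.6, 11 UMIs), Mmp8, the neutrophil collagenase, 13.9-fold (9.66 to 19.4, 39 UMIs) and Cebpe, a C/EBP factor of granule stages, 10.3-fold (1.17 to 42.2) on 2 UMIs. The median of the 14 was 2.51, against a median of 0 over all genes, most of which had no UMI in so few barcodes. Lcn2 was 31.1-fold higher in them, at 6700 CPM. No UMI was counted in the 2 barcodes of the 4 azurophil genes with a row in the multiplet table (Prtn3, Ctsg, Ms4a3 and Cst7). The azurophil list summed to 7.69 CPM in the other mature-rich multiplets, and 1 UMI in the 2 barcodes is 36.2 CPM. A lower level in the 2 barcodes therefore could not be seen. Of the cycling list, Mki67 and Top2a had no UMI there. Its 8 genes summed to 145 CPM in the 2 barcodes, against 385 CPM in the other mature-rich multiplets. At 36.2 CPM per UMI that is few UMIs, and the absence of Mki67 and Top2a is not read as a lower level. The neutrophil surface marker Ly6g had 9 and 3 UMIs.

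Most of the 17 Ltf multiplets held much RNA of club cells, and all 17 held few UMIs of the mature neutrophil genes. Their Ltf counts ran from 48 to 1160 UMIs (median 264), and they held 5419 of 5753 Ltf UMIs in the library (94.2%). Scgb1a1, the secretoglobin that defines club cells, ran from 29 to 35802 UMIs (median 5831), and the club marker list made up 0.908% to 42.1% of UMIs (median 21.0%). Summed over the 17, that list was at 218528 CPM, against 32632 CPM in the other multiplets. The lowest shares, 0.908% and 2.00%, lay below that level of the other multiplets. S100a8 totalled 10 UMIs, S100a9 10, Csf3r 2, Retnlg 1 and Mmp9 0 over all 17, and Camp and Ngp were absent. Their median depth was 32976 UMIs, well above the 11934 of the library. Of the mesothelial marker list, Msln was at 532 against 57.7 CPM in the other multiplets (9.22-fold, 8.31 to 10.2), while Upk3b and Lrrn4 had no UMI in the 17. After thinning to 2000 UMIs, at least 2 UMIs of that list were found in 7 of the 17, and its part in the differences was not tested. By contrast the 212 mature-rich multiplets without Camp or Ngp at that level had 3 Ltf UMIs in all.

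Ltf multiplets also differed in genes that act on neutrophils. Of 7 neutrophil-attracting ligands with enough UMIs, 6 were more than 1.5-fold lower than in the other multiplets, as were 62.5% of 17374 genes. Cxcl5, an epithelial chemokine for the receptor CXCR2, was the exception at 72.9-fold higher (63.1 to 84.2), where 10.3% of genes passed 1.5-fold. The 17 barcodes held 364 of its 771 UMIs in the library. Cxcl2, another CXCR2 ligand, had 5 UMIs in them (6.49 CPM) against 759 CPM elsewhere, and Cxcl15, a chemokine of lung epithelium, was at 289.5 against 1832 CPM. The median ratio of the list was 0.0635, against 0.487 over all genes.

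Genes of late neutrophils tracked calprotectin RNA in both libraries. Between mature-rich and other multiplets, leaving out all early-rich ones, 21 of 22 late-stage genes listed were more than 1.5-fold higher and none lower, beside 15.9% of 17435 genes higher and 45.7% lower. The median of the list was 9.83, against 0.733 over all genes. Cxcr2, the receptor for neutrophil chemokines, was at 303 CPM against 7.27 (41.7-fold, 37.2 to 46.8), and Il1b, the inflammatory cytokine, at 6538 against 364 CPM (18.0-fold, 17.6 to 18.3). Stfa2l1, a stefin-type protease inhibitor, was 54.6-fold higher (45.4 to 66.0). Fpr1, a receptor for formylated peptides, did not pass the limit, at 1.35-fold (1.12 to 1.61).

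In the Macrophage class the same list was compared between the 31 mature-rich barcodes and the other 252. There 21 of 22 genes were more than 1.5-fold higher, beside 29.2% of 10377 genes higher and 29.2% lower, and the median was 8.46 against 1.01. Cxcr2 was at 404 CPM against 12.1, Il1b at 9092 against 1315, and Slpi, an inhibitor of neutrophil elastase, at 1672 against 79.9. Wfdc17 was at 390.7 CPM against 498.4.

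**Figure D5:**
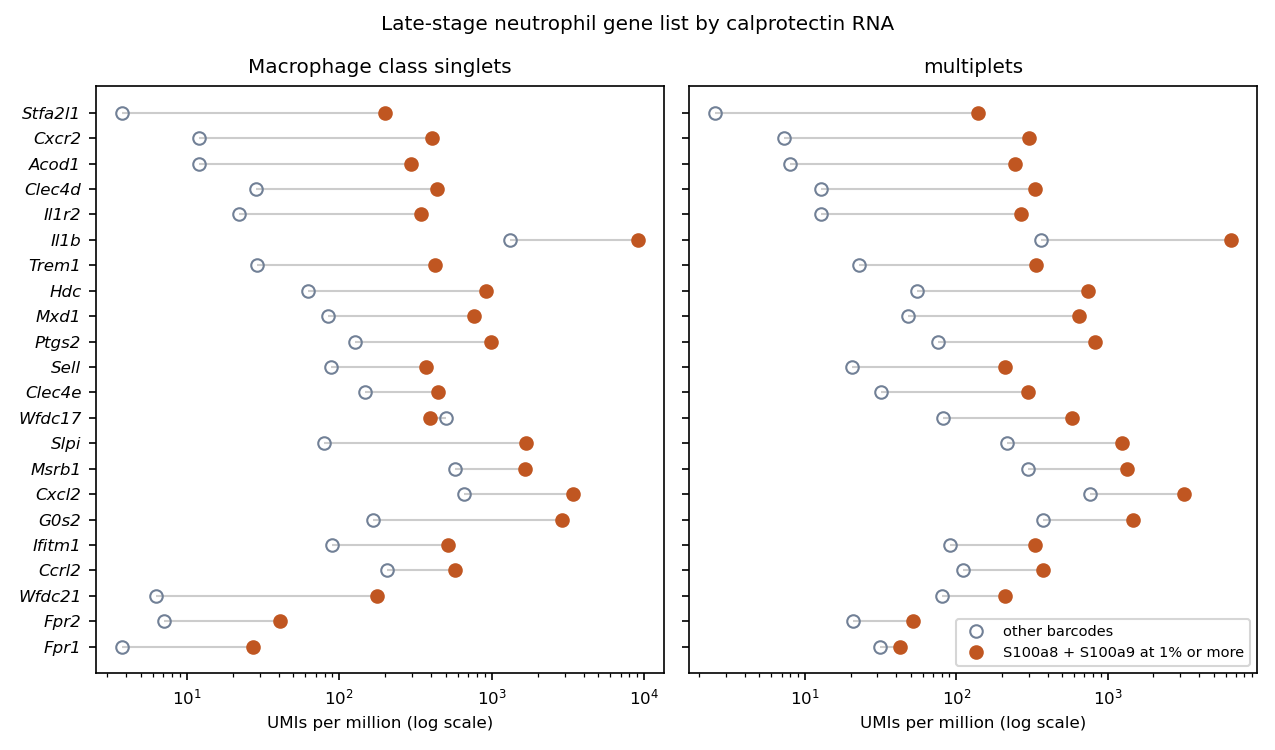
CPM (log scale) of the 22 late-stage neutrophil genes in barcodes with S100a8 plus S100a9 at 1% or more of UMIs (filled) and in other barcodes (open), for Macrophage class singlets (31 against 252) and multiplets (early-rich ones left out); no error is drawn. In multiplets every filled point lies to the right, and in singlets Wfdc17 is the exception, at 390.7 against 498.4 CPM.

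Other granule and regulator genes were mixed. Of 15 further specific granule genes with enough UMIs, 10 were more than 1.5-fold higher in mature-rich multiplets and 3 lower, with a median of 2.95. The shares over all genes, which hold for each list compared here, were 15.9% higher and 45.7% lower. Mmp8 (13.1-fold), Pglyrp1 (9.84-fold), a peptidoglycan-binding protein, and Itgam (8.36-fold), a subunit of an integrin complement receptor, were among the higher ones. Lyz2 and Chil3, which alveolar macrophages also express, were lower, at 0.619-fold and 0.459-fold. Of 2 azurophil genes that could be compared, Cst7 passed the limit by size, at 1.84-fold (0.929 to 3.33, on 12 UMIs), an interval that includes parity. Mpo and Elane have no row in the multiplet table used here, so no value of theirs could be given. Among maturation regulators, 5 of 7 were higher, and Csf3r, itself a member gene, was among those 5. Cebpe was at 27.4-fold (13.6 to 56.2, on 21 UMIs) and is counted in the specific granule list as well. Spi1, which encodes PU.1, was at 3.56-fold (3.38 to 3.74), and Cebpa was lower at 0.478-fold. The cycling list had 7 of 8 genes lower and none higher.

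Alarmins other than calprotectin did not form a group. Of 8 listed relatives, 3 were more than 1.5-fold higher in mature-rich multiplets, beside 15.9% of all genes, and 1 was lower, beside 45.7%. The 3 were S100 genes (S100a4 at 2.54-fold, S100a11 at 2.1-fold and S100a6 at 2.09-fold). S100a13 (0.716-fold) and S100a10 (0.735-fold) did not pass the limit. The nuclear alarmin Il33, made by type II pneumocytes, was lower at 0.0731-fold (0.0433 to 0.116). Receptors for calprotectin and cathelicidin were also divided, with 4 of 7 higher and 2 lower, beside the same shares of all genes. Tlr4 was near parity at 1.18-fold (0.911 to 1.51), and Ager, a marker of type I pneumocytes, was at 0.0668-fold.

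Markers of other cells moved with the mature genes and their part in these differences was not tested. After thinning to 2000 UMIs, at least 2 UMIs of the monocyte list were found in 51.4% of mature-rich multiplets (44.5% to 58.3%) and 16.4% of the others (15.3% to 17.5%), and of the interstitial macrophage list in 17.3% (12.5% to 23.0%) and 4.23% (3.66% to 4.86%). Fibroblast markers were found in 2.8% of mature-rich multiplets and 29.2% of the others. Type II markers were found in 56.5% and 55%, but their summed level was 4604 against 50894 CPM, lower for 4 of 4 genes, and 4710 of 4729 multiplets had a UMI of the surfactant gene Sftpc. Alveolar macrophage markers were found in 23.8% and 23.7%, with a summed level of 1139 against 2197 CPM, lower for 5 of 7 genes. In the Macrophage class the direction for monocytes was the opposite: 22.6% of its 31 mature-rich barcodes (9.59% to 41.1%) against 76.2% of the other 252 (70.4% to 81.3%). Fibroblast markers were found in 11 of the 31 and in 12 of the 252. All 7 genes of the neutrophil marker list were higher in mature-rich multiplets, but 5 of them are members.

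Across the 4729 multiplets, the pattern of S100a8 was most like that of Cxcr2, with a Pearson correlation of log2(1 + UMIs per 10000) of 0.82. Clec4d (0.79), Slc7a11 (0.74), Il1r2 (0.74), Acod1 (0.72) and Il1b (0.72) followed. With the other members, S100a8 had 0.94 for S100a9, 0.88 for Retnlg and 0.82 for Csf3r and Mmp9, but 0.10 for Camp and for Lcn2, 0.15 for Ngp and 0.00 for Ltf. In the 6084 singlets Cxcr2 (0.75) and Clec4d (0.70) again came first.

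Ngp was most like Ly6g (0.53), Ankrd22 (0.33), Mrgpra2b (0.30), Il1f9 (0.24), Mmp8 (0.23) and Cebpe (0.22), and had 0.88 with Camp. These values rest on the 11 multiplets with an Ngp UMI, and mostly on 2 of them. Ltf, examined after its values had been seen, was most like Agr2 (0.65), Pigr (0.62) and Cyp2a5 (0.61), and Lcn2 was most like Chil1 (0.83), Lamp3 (0.79) and Cxcl15 (0.79). All points of a correlation share 1 library, and barcodes with many UMIs detect more genes, so the values are descriptions.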

How the data were processed

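Lung singlets and lung multiplets of C57BL/6J mice, 1 library each, were analysed from the count tables the authors deposited, which hold UMI counts per gene and barcode from the Chromium 3′ v3 kit. Cell Ranger 4.0.0 and the mm10 build are named per the submitters' processing notes. Classes came from the authors' deposited annotation, whose method no label or header states; 2326 listed singlets that did not pass its flag and 3901 listed multiplets were not analysed here. Counts were summed per class or barcode group with Python 3.11.15 and scipy 1.17.1, scanpy 1.11.5 ran Scrublet on the singlets, and edgeR 4.0.16 gave TMM scaling only. Ratios were computed by scripts tested on simulated data. List genes needed 10 UMIs over the 2 groups of barcodes. The members and lists were chosen with earlier results of these data known. Named genes were the 9 members, list genes, and the 6 genes most correlated with S100a8 or Ngp among genes with a UMI in at least 20 multiplets; those for Ltf and Lcn2 were added after the values were seen. The small intestine libraries entered no comparison.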

Additional observations from a re-analysis of the deposited data

Results flagged for a closer look

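The small intestine libraries lay outside the lung comparisons, and UMIs of 3 members were counted there above the 3 that a count of 0 allows. S100a9 had 4 UMIs in the intestinal singlets, each in a different barcode. Ltf had 8 UMIs in the singlets and 8 in the multiplets, and Lcn2 had 8 UMIs in the singlets and 7 in the multiplets. The highest of these levels was 0.168 CPM.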

How the results depend on the processing

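The summed mature ratio (10.2) was 10.5 with TMM scaling, 7.67 with barcodes weighted equally, 12.6 against deep singlets, 7.73 after thinning to 2000 UMIs, 16.1 without the top 10 barcodes and 13.4 without mature-rich barcodes. The early ratio (1.31) was 1.36, 1.72, 1.20, 1.69 and 1.02 under the first 5 of these, in that order. Without Lcn2 the early ratio (18.8) was 7.44 with barcodes weighted equally, 7.19 after thinning and 65.2, on few singlet UMIs, without the top 10 barcodes. A 2-fold limit left 1588 genes higher in multiplets in place of 2402. At 2% of UMIs 124 multiplets were mature-rich in place of 214. With Camp plus Ngp alone, 100% of early-rich multiplets (2 of 2) were also mature-rich. The summed late-gene ratio (7.24) was 8.08 at a 2% limit and 6.68 at 0.5%. The S100a8 share in multiplets with alveolar macrophage markers (59.9%) was 50.9% when the pair could reach 1%. The cause of these shifts was not tested. The runs without mature-rich barcodes, with Camp plus Ngp alone, with other limits for the late list, and all those on the S100a8 share were chosen after seeing the data. No summed ratio changed direction. Ngp gave no alternative ratio and Camp none without its top 10 barcodes. No paired analysis was possible because each group is 1 library. With 1 library per group, no interval covers the spread between animals or preparations, and Camp and Ngp rest on few barcodes.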

Other observations

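Some further genes of the neutrophil lists were higher in the 17 Ltf multiplets. Of 14 other specific granule genes with enough UMIs, 3 were more than 1.5-fold higher there and 10 lower, beside 10.3% and 62.5% of all genes. Pglyrp1, the peptidoglycan-binding granule protein, had 603 UMIs in the 17 (783 CPM) against 42.0 CPM in the other multiplets, 18.7-fold higher (17.0 to 20.4). Ifitm1, an interferon-induced membrane protein on the late-stage list, had 406 UMIs (527 CPM against 90.8), and the other 21 genes of that list were lower, as were 62.5% of all genes. Of 8 cycling genes, 5 were more than 1.5-fold higher, beside 10.3% of all genes, among them Ube2c at 7.87-fold and Cdk1 at 4.50-fold. Mki67 was found in 2 of the 17, at 30 and 34 UMIs, so this count rests on few barcodes.

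Mature-rich Macrophage singlets differed from the rest of their class in RNA of other cells. Monocyte markers summed to 509 CPM against 2823, dendritic markers to 31.8 against 367, and fibroblast markers to 3803 against 295. All 5 fibroblast markers were higher, by 5.20-fold to 29.7-fold. Their part in the differences within the class was not tested.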
